A study of Mus musculus with 24 samples.

Results

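Cells carrying CD11b and Ly6G were enriched with magnetic beads from the livers of mice that had a sham operation, and the RNA of postoperative day (POD) 2 was compared with that of POD3. All mice were wild-type male BALB/c animals of 8 weeks. The sham operation was a midline laparotomy without resection, and the other operation of the study was a 70% hepatectomy. The comparison used the 3 libraries of sham POD2 and the 3 of sham POD3, chosen by their labels, which are 6 of the 24 libraries of the series. For the question of whether hepatectomy mice differed in the same way between these days, the 3 libraries each of hepatectomy POD2 and POD3 were added. The labels call the cells G-MDSCs, granulocytic myeloid-derived suppressor cells, and do not say whether each library came from 1 animal, so p-values measure the spread between these samples, which may be technical. A laparotomy alone opens the abdomen and is itself an injury, and no unoperated mice were among the samples used here.

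Granulocytic suppressor cells share surface markers with neutrophils, short-lived granulocytes that bone marrow releases under the growth factor G-CSF. Their granules carry antimicrobial proteins and proteases, and their cytosol is rich in the calcium-binding pair S100a8 and S100a9. Liver sinusoids, through which these cells pass, are lined by scavenging endothelial cells that carry the receptors Stab2 and Clec4g. Interferons induce antiviral genes in nearly all cells through dedicated transcription factors.

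The 6 libraries held 11708059 to 16949088 counted reads, and 18835 to 19581 genes had at least 1 count. Mitochondrial transcripts took 1.73% to 3.02% of the counts. Log2 levels correlated at Pearson's r of 0.976 to 0.988 within POD2, 0.988 to 0.993 within POD3 and 0.946 to 0.979 between the days, across 13054 genes, which are not independent replicates. Levels are given in CPM, counts of a gene relative to its scaled library total, as edgeR's cpm function gives them, unless unscaled totals are named.

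The marker transcripts did not match the label alone. Relative to unscaled library totals, the 23 markers of sinusoidal endothelium summed to 53058 to 66814 CPM at POD2 and 40396 to 44720 CPM at POD3. On the same totals the 27 neutrophil markers summed to 6814 to 14531 CPM and 27419 to 32525 CPM. Ly6g itself, the gene of the antigen used in the sort, stood at 29.9, 13.4 and 10.3 CPM in the 3 POD2 libraries and at 39.5, 65.2 and 62.4 CPM at POD3. Each library was thus a mixture in which endothelial transcripts outweighed those of neutrophils. In such a mixture fewer cells of a type and less RNA per cell cannot be told apart. The markers Klra8 of NK cells, Epx of eosinophils, Tpsb2 of mast cells and Prss34 of basophils had no count in any of the 6 libraries.

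Some libraries stood apart within their day. A marker score is the mean log2(CPM + 1) of a list, with CPM of unscaled library totals. The score of Kupffer cells, the resident macrophages of the liver, was 8.27 in replicate 1 of POD2 and 7.60 in replicate 3 of POD3. It was 6.23 to 6.65 in the other 4. Clec4f, a lectin of Kupffer cells, stood at 1462, 349 and 242 CPM at POD2 and at 279, 300 and 792 CPM at POD3. Replicate 2 of POD2 had the highest level of several interferon-induced transcripts, such as Rsad2, an antiviral enzyme, at 139, 367 and 137 CPM at POD2 and 154, 160 and 142 CPM at POD3. Replicate 3 of POD2 held the most of the stress chaperone Hspa1a, at 205, 176 and 622 CPM at POD2 and 265, 172 and 74.3 CPM at POD3.

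Between the 2 days neutrophil transcripts were about 3-fold higher at POD3 and a set of interferon-induced transcripts was lower. In all, 1985 of 13054 genes (15.2%) had an adjusted p under 0.05 in edgeR's quasi-likelihood test, two-sided and adjusted by the Benjamini-Hochberg method. Of these, 1641 (12.6%) were higher and 344 (2.64%) lower at POD3. The median log2 fold change of all tested genes was -0.08. With library size alone as the scaling the median was -0.26 and the split turned to 1410 higher and 2627 lower, so the directions of small changes depended on the scaling. The 3 libraries of one day lay wholly above those of the other for 2839 genes (21.7%) higher and 2429 genes (18.6%) lower at POD3.

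The calls depended on which libraries were fitted. Without replicate 2 of sham POD3, 0 genes passed (edgeR, lowest adjusted p = 0.0532), with 3085 at an unadjusted p under 0.05, against 4458 with all 6 libraries. Without replicate 3 of POD3, 784 were higher and 9 lower, and without replicate 1 of POD2, the library richest in Kupffer transcripts, 2165 were higher and 919 lower. All 1985 genes kept their sign in each of these fits, but they were chosen in these same libraries, so this is no independent support.

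**Figure D1:**
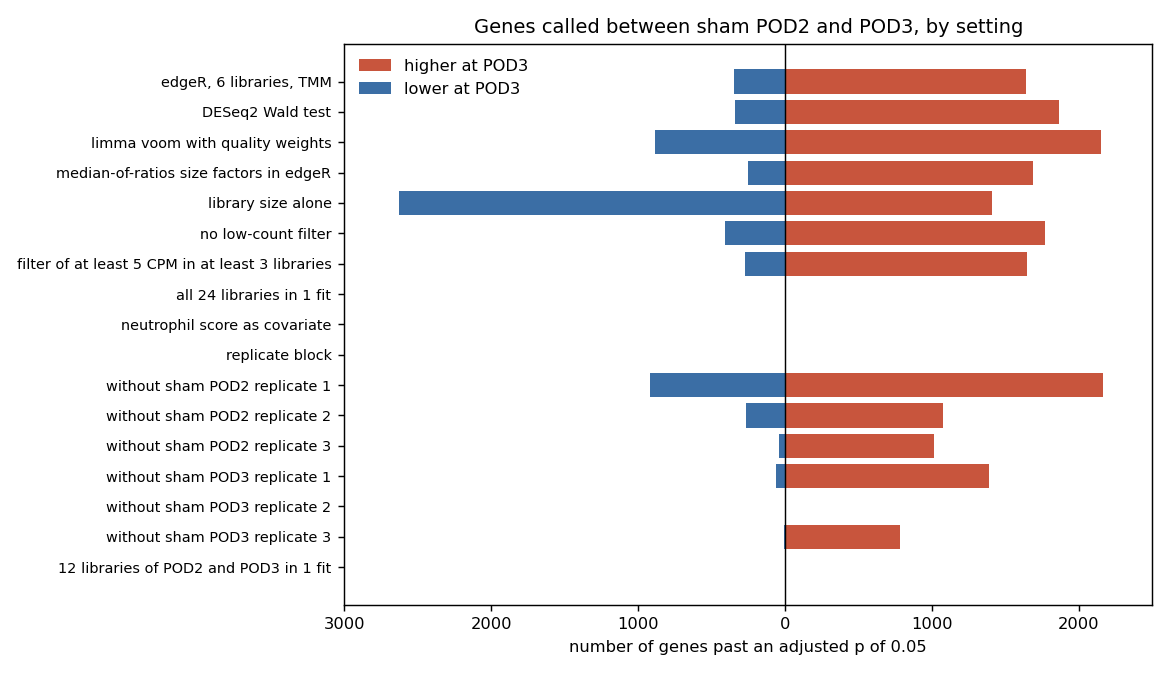
Number of genes past an adjusted p of 0.05 between sham POD2 and POD3 under each setting, higher to the right and lower to the left of 0. The 6-library edgeR fit gives 1641 higher and 344 lower, the counts reach 2165 higher without replicate 1 of sham POD2 and 2627 lower with library size alone, and they are 0 in 5 settings, among them the fit without replicate 2 of sham POD3.

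Neutrophil transcripts rose together. Of the 24 tested neutrophil genes 20 were higher, beside 12.6% of all genes, none was lower, and all 24 had POD3 libraries above every POD2 library, against 21.7% of all genes. Their median log2 fold change was 1.65, in a range of 0.89 to 2.35, beside -0.08 for all genes. The list was written with earlier results of these data known and its members share a cell type, so the count describes them together.

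S100a8 stood at 1944, 934 and 676 CPM at POD2 and at 3632, 4751 and 4855 CPM at POD3. Its partner S100a9 stood at 4686, 2931 and 1915 CPM and at 11027, 11673 and 12487 CPM. The lowest POD3 library of each gene was well above the highest POD2 library, and replicate 1 of POD2 was the highest of its day. The log2 fold changes were 1.90 ± 0.38 (approximate SE) for S100a8 and 1.88 ± 0.31 for S100a9, with adjusted p of 0.0191 and 0.0151 in edgeR's test.

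Receptors of neutrophils rose with the S100 genes. Csf3r, the receptor of G-CSF, stood at 2111, 1968 and 1080 CPM at POD2 and at 4531, 5582 and 5409 CPM at POD3 (log2 1.59 ± 0.26, adjusted p = 0.0151, edgeR). Cxcr2, the chemokine receptor that draws neutrophils into tissue, rose by log2 1.73 ± 0.30 (adjusted p = 0.0155, edgeR). Itgam, the gene of CD11b, rose by 1.43 ± 0.26. Cxcr4, the receptor that retains neutrophils in bone marrow, had the smallest fold change of the list, from 223, 328 and 197 CPM to 528, 429 and 428 CPM (log2 0.89 ± 0.20, adjusted p = 0.0273, edgeR).

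The granule genes ranged from below to above the S100 genes in fold change. Mmp8, the neutrophil collagenase, stood at 211, 80.0 and 51.4 CPM at POD2 and at 394, 538 and 568 CPM at POD3 (log2 2.13 ± 0.48, adjusted p = 0.0263, edgeR). Lcn2, an iron-scavenging lipocalin of the granules, stood at 275, 112 and 88.5 CPM and at 478, 872 and 1075 CPM (log2 2.35 ± 0.47, adjusted p = 0.0200, edgeR). For both genes replicate 1 of POD2 held more than the other 2 of its day and replicate 1 of POD3 less than its 2 companions. A further 4 granule genes did not pass the test: Camp at log2 1.56, Ltf at 1.63, Ngp at 1.59 and Prtn3 at 1.75, with adjusted p from 0.0518 to 0.0796 in edgeR's test. Elane, Mpo and Stfa1 of the same list were too low to be tested.

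Promoters of neutrophil genes are shown because many of them rose together. They come from RefSeq, build GRCm38.p6, and run from 250 bases before to 50 after the gene start, 5′ to 3′ on the gene's strand. Capitals mark GAGGAAGT, a binding sequence of the myeloid factor PU.1, or its reverse complement.
S100a8, chr3:90668821-90669120, plus strand: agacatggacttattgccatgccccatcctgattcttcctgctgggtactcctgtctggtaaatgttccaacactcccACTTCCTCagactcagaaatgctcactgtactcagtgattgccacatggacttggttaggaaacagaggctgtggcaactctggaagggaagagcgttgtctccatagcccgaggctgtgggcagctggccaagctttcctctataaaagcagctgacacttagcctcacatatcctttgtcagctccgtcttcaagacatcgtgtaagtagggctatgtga
Mmp8, chr9:7558179-7558478, plus strand: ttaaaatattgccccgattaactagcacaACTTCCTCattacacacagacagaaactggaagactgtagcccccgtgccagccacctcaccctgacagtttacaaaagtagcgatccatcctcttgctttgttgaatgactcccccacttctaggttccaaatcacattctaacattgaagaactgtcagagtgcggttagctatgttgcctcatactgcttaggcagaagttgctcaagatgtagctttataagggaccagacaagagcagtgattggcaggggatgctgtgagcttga
Ly6g, chr15:75155011-75155310, plus strand: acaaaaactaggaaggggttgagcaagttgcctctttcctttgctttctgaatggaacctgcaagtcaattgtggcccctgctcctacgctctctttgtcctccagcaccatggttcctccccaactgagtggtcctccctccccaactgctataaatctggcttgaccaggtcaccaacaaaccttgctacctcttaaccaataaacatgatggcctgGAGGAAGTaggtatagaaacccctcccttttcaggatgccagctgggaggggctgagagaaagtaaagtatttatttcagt
The letters occurred in 5 of the 22 promoters (22.7%) found for the neutrophil list, in 5.84% of the 1592 promoters of genes called higher, in 3.32% of those of genes called lower and in 3.43% of the 12219 promoters of all tested genes. The 22 promoters cover 21 genes, as Ly6g has 2 overlapping entries, and both of these are among the 5. The 3 promoters shown are among those with a match, and a match describes the letters only.

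**Figure D2:**
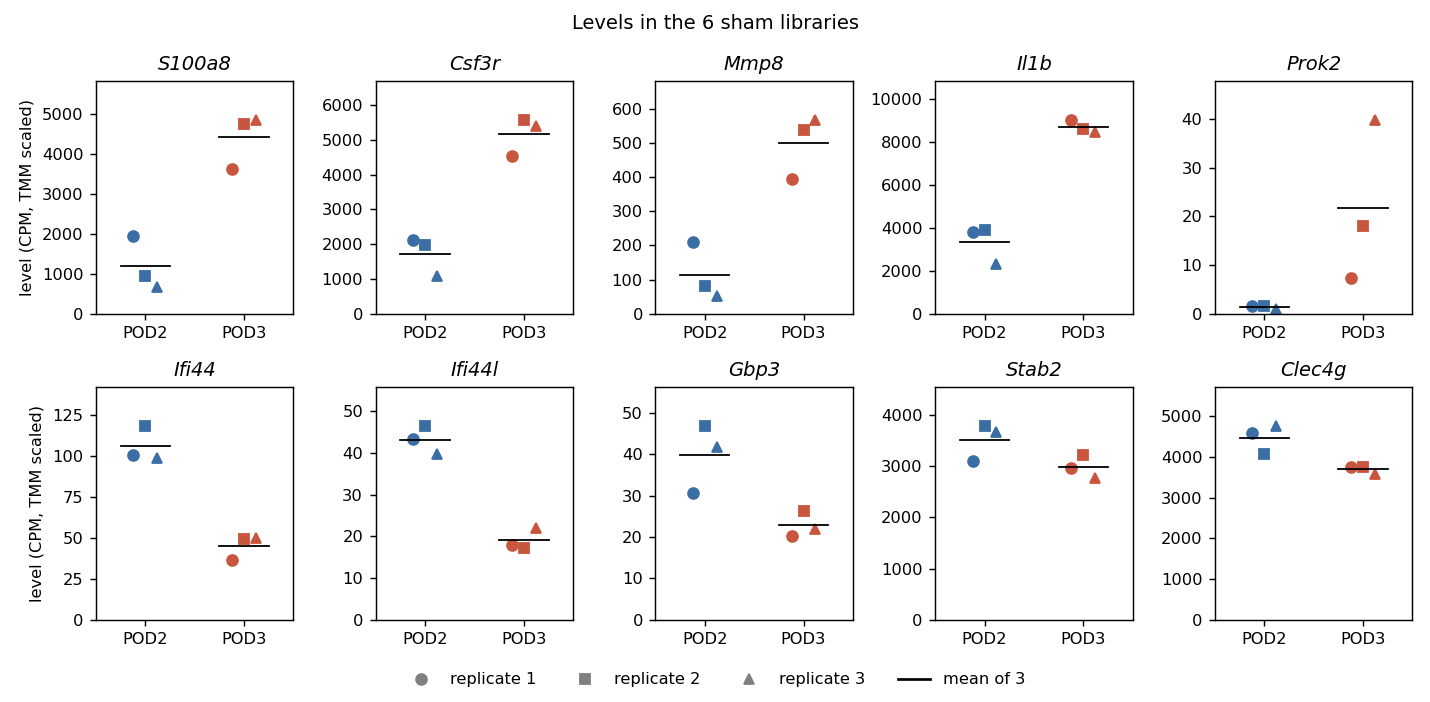
Levels in CPM (vertical axis, from 0) of 5 genes higher and 3 genes lower at POD3 and of the endothelial genes Stab2 and Clec4g, in each of the 6 sham libraries, with the mean of 3 as a line. S100a8 lies between 676 and 1944 CPM at POD2 and between 3632 and 4855 CPM at POD3, and Ifi44 between 98.6 and 118 CPM and between 36.7 and 49.9 CPM.

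The largest fold change among the named genes was that of Prok2 (chr6:99711299-99726392, minus strand, GRCm38), a small secreted prokineticin made by myeloid cells. It stood at 1.60, 1.52 and 0.949 CPM at POD2 and at 7.24, 18.0 and 39.8 CPM at POD3 (log2 3.98 ± 0.63, adjusted p = 0.0151, edgeR). The POD3 libraries differed widely among themselves, and the lowest was still above every POD2 library. Entpd3, an enzyme that degrades extracellular ATP, stood at 11.2, 13.9 and 7.74 CPM and at 35.6, 63.6 and 81.1 CPM (log2 2.46 ± 0.33, adjusted p = 0.0151, edgeR). Sycp2, a protein of the meiotic synaptonemal complex, stood at 18.2, 18.9 and 11.2 CPM and at 63.5, 70.1 and 76.05 CPM (log2 2.11 ± 0.19, adjusted p = 0.0151, edgeR). Neither Entpd3 nor Sycp2 was on a marker list, and both had groups that did not overlap.

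Predicted and clone symbols were left out of the naming, among them BC100530 of the neutrophil list at log2 2.28. Apart from Lcn2, the other 11 of the 15 named higher genes lay between log2 2.06 and 2.33. Hrh2, the histamine H2 receptor, rose by 2.33 ± 0.38, and Stfa2, a cysteine protease inhibitor, by 2.31 ± 0.35. Lrg1, a secreted glycoprotein, rose from 377, 156 and 142 CPM to 571, 1197 and 1371 CPM (log2 2.22 ± 0.46, adjusted p = 0.0213, edgeR). Olfm4, a granule glycoprotein, rose by 2.18 ± 0.41, Steap4, a metalloreductase, by 2.08 ± 0.31 and Igfbp6, a binding protein of insulin-like growth factors, by 2.13 ± 0.34. Ifitm6, Celsr3, Mmp8, Amer2 and Wfdc21 completed the group.

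Of 22 tested genes linked to the suppressive function of myeloid cells, 11 were higher, beside 12.6% of all genes, and none lower, with a median log2 of 0.86. S100a8, S100a9, Trem1 and others of the list are also neutrophil genes. Arg2, the mitochondrial arginase, stood at 101, 74.3 and 51.1 CPM at POD2 and at 212, 206 and 199.6 CPM at POD3 (log2 1.44 ± 0.22, adjusted p = 0.0151, edgeR). Cebpb, a transcription factor of emergency granulopoiesis, rose by 1.17 ± 0.17. Ptgs2, the inducible cyclooxygenase, stood at 390, 457 and 196 CPM and at 790, 802 and 626 CPM (log2 1.09 ± 0.29, adjusted p = 0.0440, edgeR).

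Other effectors named most often for suppressor cells did not pass the test. Arg1, the cytosolic arginase, stood at 26.3, 22.1 and 11.5 CPM and at 15.4, 18.3 and 33.9 CPM (log2 0.17 ± 0.37, adjusted p = 0.763, edgeR), with groups that overlapped. Cd274, the gene of PD-L1, had log2 0.08 ± 0.25, Tgfb1 -0.02 ± 0.10 and Il10 0.28 ± 0.34, each with overlapping groups. Nos2, the inducible nitric oxide synthase, was near the lower limit, at 1.17 to 2.02 CPM at POD2 and 1.61 to 3.83 CPM at POD3. Cybb, the catalytic subunit of the NADPH oxidase, followed the Kupffer-rich libraries at 164, 65.5 and 39.5 CPM and at 80.2, 99.9 and 141 CPM.

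Inflammatory genes included several that were higher at POD3 and none that was lower. Of 39 tested genes of cytokines and the NF-kB pathway 6 were higher, a share near the 12.6% of all genes, with a median log2 of 0.28 (0.10 with library size alone). Il1b, the cytokine interleukin 1 beta, stood at 3805, 3899.8 and 2308 CPM at POD2 and at 9029.5, 8623 and 8466 CPM at POD3 (log2 1.38 ± 0.22, adjusted p = 0.0151, edgeR). Tnfaip2, Birc3, Bcl3 and Nfkb2, which respond to NF-kB, were the others besides Ptgs2. Osm, the cytokine oncostatin M, listed with the growth factors, stood at 419, 193 and 148 CPM and at 579.8, 865 and 945 CPM (log2 1.65 ± 0.39, adjusted p = 0.0294, edgeR). Of 31 immediate-early genes, which also respond to tissue dissociation, 6 were higher, beside 12.6% of all genes, and none lower (median 0.40, or 0.21 with library size alone), among them the transcription factor subunit Junb at 0.73 ± 0.18 and the antiproliferative gene Btg2 at 0.94 ± 0.16.

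Some genes of sugar use were higher. Of 32 tested genes of glycolysis and hypoxia 11 were higher, beside 12.6% of all genes, none was called lower and 21 did not pass, with a median log2 of 0.30 (0.12 with library size alone). Slc2a1, the glucose transporter GLUT1, stood at 74.8, 55.8 and 33.9 CPM at POD2 and at 142, 197 and 178 CPM at POD3 (log2 1.65 ± 0.27, adjusted p = 0.0151, edgeR). The regulatory enzymes Pfkfb3 and Pfkfb4 rose by 0.66 ± 0.10 and 1.60 ± 0.30. Gapdh and Eno1, also called, have many processed copies in the genome, so their low levels of 11.3 to 47.9 CPM are uncertain. Of 28 NRF2 and antioxidant genes 8 were higher and 3 lower, beside 12.6% and 2.64% of all genes, and their median turned from 0.087 to -0.095 with library size alone. The higher ones included the pentose phosphate enzymes G6pdx (1.39 ± 0.28), Pgd (1.17 ± 0.25) and Taldo1 (1.07 ± 0.19), and the lower ones were catalase (Cat, -0.42 ± 0.08), Prdx1 (-0.47 ± 0.12) and Sod1 (-0.44 ± 0.12), which remove peroxide and superoxide. Of 54 nuclear genes of oxidative phosphorylation none was higher and 3, Ndufa5, Ndufb2 and Ndufa9 of complex I, were lower, beside 2.64% of all genes (median -0.25). In 25 of the 54 the POD3 libraries lay below every POD2 library, beside 18.6% of all genes.

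**Figure D3:**
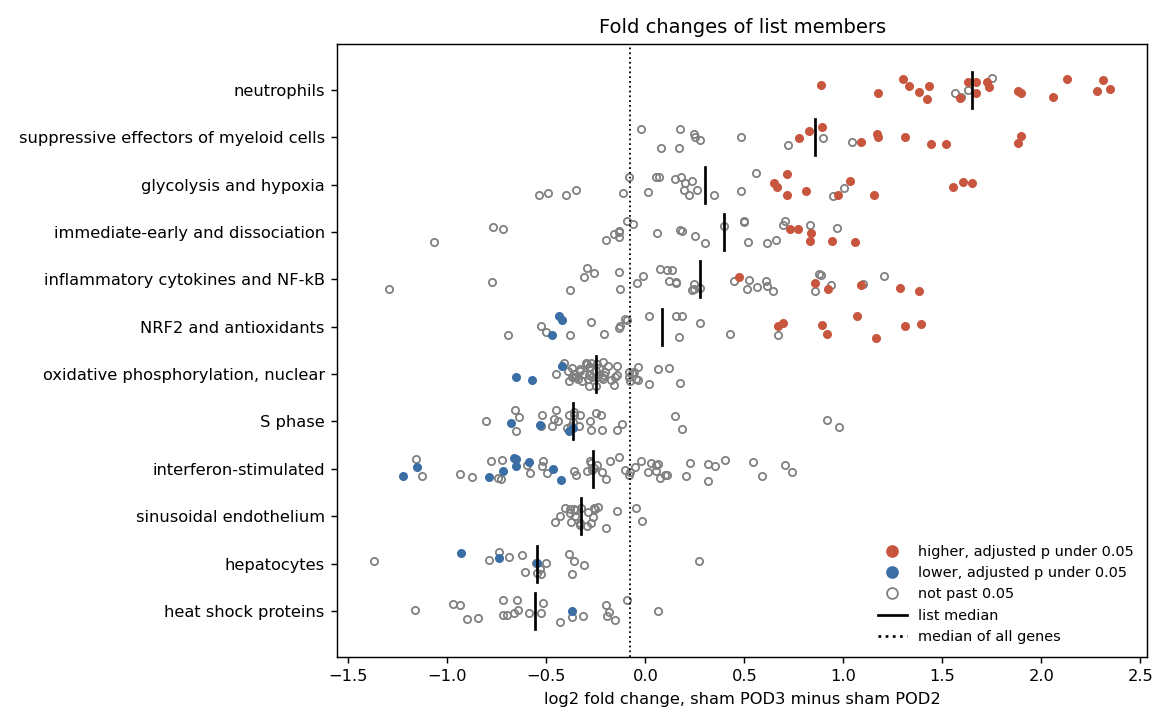
Log2 fold change of each tested member of 12 lists (horizontal axis), filled where the adjusted p was under 0.05, with the list median as a bar and the median of all genes, -0.08, as a dotted line. The neutrophil members all lie to the right, at 0.89 to 2.35, and the called interferon-stimulated members to the left.

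Among other single genes, Nfil3, a transcription factor that also takes part in the circadian clock, stood at 65.7, 32.4 and 22.4 CPM at POD2 and at 132, 186 and 139 CPM at POD3 (log2 1.92 ± 0.37, adjusted p = 0.0175, edgeR). With Cry1, a clock repressor at 0.88 ± 0.18, it made up the 2 of 19 clock genes that passed, a share no higher than the 12.6% of all genes. Notch2, a receptor also found on myeloid cells, rose by 1.63 ± 0.30. It was the 1 higher gene of 37 in the list of VEGF, angiopoietin and Notch receptors and targets, beside 12.6% of all genes. That list also had 1 lower gene, beside 2.64% of all genes. In 16 of its genes the POD3 libraries lay below every POD2 library, beside 18.6% of all genes (median -0.29). Mcl1, which keeps neutrophils alive, rose by 0.91 ± 0.16. Among 33 apoptosis genes 8 were higher and 1 was lower, beside 12.6% and 2.64% of all genes. Of 29 acute-phase and complement genes 6 were higher and 1 was lower, beside the same 12.6% and 2.64%. The higher ones included the complement receptors C5ar1 (1.22 ± 0.22) and C5ar2 (0.65 ± 0.15).

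The interferon-induced transcripts were lower at POD3, but only in part of the list. Of 58 tested genes 10 were lower and none was higher, beside 2.64% lower among all genes, and the list median was -0.26. Ifi44 stood at 100.5, 118 and 98.6 CPM at POD2 and at 36.7, 49.3 and 49.9 CPM at POD3 (log2 -1.22 ± 0.14, adjusted p = 0.0151, edgeR). Its neighbour Ifi44l, on no list, stood at 43.3, 46.5 and 39.8 CPM and at 18.0, 17.2 and 21.99 CPM (log2 -1.18 ± 0.13, adjusted p = 0.0151, edgeR). The highest POD3 library of each gene was below every POD2 library, and the POD2 libraries were close to each other.

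The others that fell were smaller in change. Mx2, of a family of dynamin-like antiviral GTPases, is listed as a polymorphic pseudogene in the annotation of GRCm38. Its transcript stood at 10.8, 24.8 and 13.4 CPM and at 7.77, 7.08 and 7.12 CPM (log2 -1.15 ± 0.30, adjusted p = 0.0414, edgeR), with replicate 2 of POD2 the highest. Gbp3, a guanylate-binding protein, stood at 30.5, 46.9 and 41.8 CPM and at 20.3, 26.4 and 21.99 CPM (log2 -0.79 ± 0.18, adjusted p = 0.0263, edgeR). Ly6e, a surface protein that limits viral entry, stood at 874, 824 and 729 CPM and at 429.6, 531 and 571 CPM (log2 -0.66 ± 0.15, adjusted p = 0.0248, edgeR). Bst2 (tetherin), Ifi47, Ifi35, Usp18, Xaf1 and Eif2ak2 fell by log2 values between -0.43 and -0.72. Ube2l6, the conjugating enzyme for the ubiquitin-like protein ISG15, is not on the interferon list and fell by 0.86 ± 0.10 on the log2 scale.

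Several widely used interferon markers did not pass. Ifit1 had log2 -0.52 ± 0.37, Isg15 0.03 ± 0.27 and Irf7 -0.20 ± 0.22, all with overlapping groups. Isg15 stood at 66.3, 127 and 62.9 CPM at POD2 and at 101.6, 83.8 and 76.4 CPM at POD3, with replicate 2 of POD2 the highest. Oas3, another antiviral gene, had the highest value of the list at log2 0.74 and did not pass (adjusted p = 0.123, edgeR).

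The promoters of 3 lower genes are shown for the interferon response core GAAANNGAA, in capitals or as its reverse complement, from the same RefSeq table and with the same limits from the gene start.
Ifi44, chr3:151749861-151750160, minus strand: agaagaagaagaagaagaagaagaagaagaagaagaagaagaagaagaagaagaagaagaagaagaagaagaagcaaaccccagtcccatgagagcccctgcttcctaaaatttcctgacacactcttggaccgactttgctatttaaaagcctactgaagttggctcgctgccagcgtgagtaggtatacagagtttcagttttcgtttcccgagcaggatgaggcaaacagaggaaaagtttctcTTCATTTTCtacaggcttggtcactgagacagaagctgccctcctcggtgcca
Ifi44l, chr3:151762842-151763141, minus strand: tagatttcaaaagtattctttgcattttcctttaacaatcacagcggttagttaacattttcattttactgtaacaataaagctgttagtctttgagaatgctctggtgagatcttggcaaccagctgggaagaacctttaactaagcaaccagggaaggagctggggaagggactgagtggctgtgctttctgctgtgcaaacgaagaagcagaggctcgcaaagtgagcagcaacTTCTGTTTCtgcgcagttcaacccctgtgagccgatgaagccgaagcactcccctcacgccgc
Gbp3, chr3:142559794-142560093, plus strand: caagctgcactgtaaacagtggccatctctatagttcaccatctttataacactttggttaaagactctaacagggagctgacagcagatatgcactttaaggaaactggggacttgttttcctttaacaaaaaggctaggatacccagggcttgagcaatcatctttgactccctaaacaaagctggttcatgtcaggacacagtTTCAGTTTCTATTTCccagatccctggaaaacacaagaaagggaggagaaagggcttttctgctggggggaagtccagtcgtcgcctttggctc
The core occurred in 26 of 49 promoters (53.1%) found for the whole interferon list and in 4 of the 8 promoters found for its 10 lower members (50%). It occurred in 10.3% of the promoters of all genes called lower, in 6.66% of those called higher, in 7.45% of those of all tested genes and in 8.56% of the 32851 promoters of the table. The share among the lower members was thus near that of the whole list. The E-box CACGTG, the clock D-box TTATGTAA or its variant TTACATAA, the ROR element AGGTCA, the cyclic AMP element TGACGTCA, the AP-1 site TGACTCA and the heat shock element GAANNTTC were found in 0.754% to 13.9% of the promoters of called genes and in 0.573% to 12.6% of those of all tested genes. The AP-1 site was in 6.65% of promoters of lower genes and 4.59% of those of higher genes, beside 3.9% of all tested. For the cyclic AMP element these shares were 4.53%, 2.01% and 2.93%, and for the E-box 8.76%, 9.11% and 9.77%. The shares were not tested.

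Endothelial transcripts, the most abundant of the mixture, were lower at POD3 by amounts that did not pass the test. None of the 23 sinusoidal markers was called, beside 15.2% of all genes, and their median log2 was -0.32. In 12 of them the POD3 libraries lay below every POD2 library, beside 18.6% of all genes. Stab2 stood at 3110, 3788 and 3669 CPM at POD2 and at 2968, 3213 and 2781 CPM at POD3 (log2 -0.24 ± 0.15, adjusted p = 0.281, edgeR), with overlapping groups. Clec4g stood at 4590.4, 4088 and 4765 CPM and at 3755.5, 3760.5 and 3592 CPM (log2 -0.28 ± 0.14, adjusted p = 0.198, edgeR), with groups that did not overlap. Kdr, the main VEGF receptor, had log2 -0.26 ± 0.15 and did not pass.

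A few genes of other vessels and of endothelial signals passed. Ly6a, the surface antigen Sca-1, stood at 8.18, 24.9 and 19.0 CPM at POD2 and at 4.29, 6.42 and 4.19 CPM at POD3 (log2 -1.78 ± 0.40, adjusted p = 0.0261, edgeR). Wnt2, a ligand of central vein and sinusoidal endothelium, fell by 0.41 ± 0.11 on the log2 scale and Dll1, a Notch ligand, by 0.60 ± 0.11. Selp, the adhesion molecule P-selectin, rose by 0.95 ± 0.23. Cd36, a fatty acid transporter, stood at 322, 386 and 487 CPM and at 248, 271 and 238 CPM (log2 -0.66 ± 0.16, adjusted p = 0.0336, edgeR).

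Some hepatocyte and replication genes were also lower. Of 19 hepatocyte genes 3 were lower, beside 2.64% of all genes, and none higher, with a median log2 of -0.55. Cyp2e1, a cytochrome of hepatocytes, stood at 8.81, 7.95 and 7.23 CPM at POD2 and at 4.47, 4.46 and 3.65 CPM at POD3 (log2 -0.93 ± 0.17, adjusted p = 0.0164, edgeR). Ttr and Fga, secreted by hepatocytes, and Fabp1, a fatty acid-binding protein, also fell, while Alb had log2 -0.31 ± 0.21 and did not pass. Of 33 S phase genes 4 were lower, beside the same 2.64%, and none higher (median -0.37), the helicase subunits Mcm5 and Mcm3, the ligase Lig1 and the reductase subunit Rrm1. Of 26 G2 and M phase genes Kif23 alone was called, higher at 0.97 ± 0.18, beside 12.6% of all genes, while the list median was -0.25. Of 24 heat shock genes, the mitochondrial chaperone Hspa9 alone was called, lower at -0.37 ± 0.10, beside 2.64% of all genes. The list median was -0.56.

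**Figure D4:**
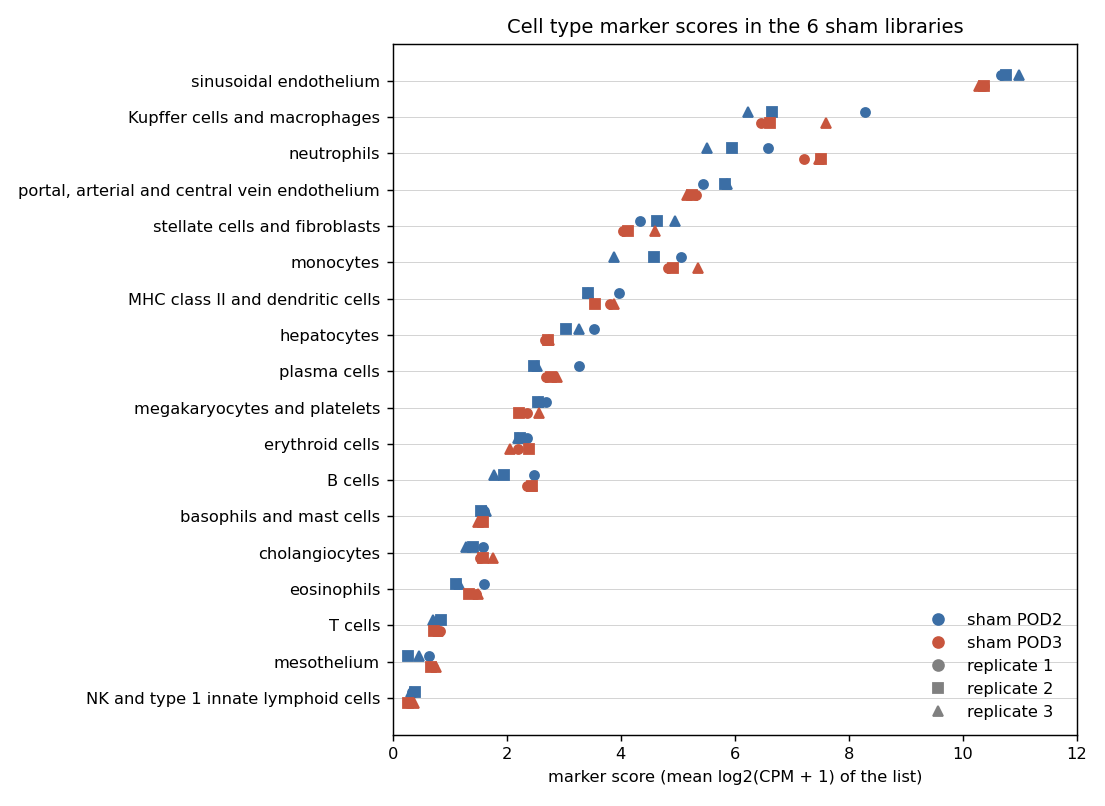
Marker score of 18 cell types (mean log2(CPM + 1) of each list on unscaled library totals, horizontal axis) in the 3 libraries of sham POD2 and the 3 of sham POD3. The neutrophil score is higher in every POD3 library, at 7.20 to 7.51 against 5.50 to 6.59, and the sinusoidal score lower, at 10.27 to 10.37 against 10.67 to 10.98.

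The marker scores rest on unscaled library totals, so their differences are not those of the scaled gene tests. With library size alone the median log2 fold change of all tested genes was -0.26, against -0.08 with scaling. Scores that were lower at POD3 include that shift. The neutrophil score was 6.59, 5.94 and 5.50 at POD2 and 7.20, 7.51 and 7.47 at POD3, a difference of 1.38. The sinusoidal score differed by -0.47, that of the other endothelium by -0.48, the hepatocyte score by -0.57 and the mesothelial score by 0.26 (0.65 with a pseudocount of 0.1 in place of 1, and 0.16 without replicate 2 of POD2). In all 5 the groups did not overlap, which gives an exact permutation p of 0.1, the smallest possible with 3 against 3 libraries (0.36 after adjustment over 18 scores). The Kupffer score differed by -0.16 (exact permutation p = 0.8) and the monocyte score by 0.52 (exact permutation p = 0.3), with overlapping groups. Without replicate 1 of POD2 the Kupffer difference turned to 0.45, and without replicate 1 of POD3 to 0.052. The monocyte difference was 0.797 without replicate 1 of POD2 and 0.21 without replicate 3 of POD2.

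Markers of rarer cells gave isolated calls, beside 12.6% of all genes called higher and 2.64% called lower. Acta2, smooth muscle actin, was the 1 called gene of 20 stellate and fibroblast markers, at log2 1.69 ± 0.35, while the list median was -0.35 and Ecm1 and Col3a1 of the list were at -0.55 and -0.51. Cd3d, a T cell receptor subunit, stood at 6.35, 4.19 and 3.72 CPM at POD2 and at 11.5, 12.9 and 11.5 CPM at POD3 (log2 1.32 ± 0.22, adjusted p = 0.0151, edgeR), while 3 other T cell markers did not pass and the remaining 12 were too low to be tested. Krt7 of the cholangiocyte list (1.19 ± 0.24) and Siglecf of the eosinophil list (1.15 ± 0.22) were higher, with Ear2 and Ccr3, the other eosinophil genes tested, at -0.39 and -0.22. Epor of the erythroid list was lower (-0.54 ± 0.10), against a list median of 0.20. None of the 19 Kupffer cell genes was called.

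The neutrophil score moved with the day, and the part of a changed mixture in the calls was not tested. With that score as a covariate 0 genes passed (edgeR, lowest adjusted p = 0.170, 900 at an unadjusted p under 0.05), and 1723 of the 1985 genes kept their sign. Mmp8 and Ly6g then had fold changes of -0.23 and -0.37 on the log2 scale, and Stab2 and Kdr of 0.051 and 0.13. The score is made of genes that were themselves called and lies apart on the 2 days, so day and score cannot be told apart in these 6 libraries.

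Whether hepatectomy mice differed between these days in the same way was asked of 12 libraries in 1 fit. The difference between the operations passed for 0 of 13735 genes (0%) in edgeR's test, with 815 at an unadjusted p under 0.05 and a lowest adjusted p of 0.481, while DESeq2 called 24 higher and 19 lower. Replicate 1 of hepatectomy POD3 stood apart, with Stab2 at 72.3 CPM of the unscaled total against 2471 and 2540.0 CPM in its companions. Without it 1849 of 13940 genes (13.3%) had a higher day difference in sham and 810 (5.81%) a lower one. Leaving out any other single library gave 0 in both directions. In the same 12-library fit the sham day difference itself passed for no gene (lowest adjusted p = 0.454, 1332 at an unadjusted p under 0.05).

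Neutrophil genes in the hepatectomy libraries spread widely. Csf3r stood at 4272, 4119 and 5625 CPM at hepatectomy POD2 and at 8939, 2121 and 2358 CPM at hepatectomy POD3, scaled over the 12 libraries, so that replicate 1 of POD3 was the highest and its companions were the lowest. The difference between the operations was log2 1.69 ± 0.78 (adjusted p = 0.843, edgeR), and 2.63 ± 0.37 without that replicate (adjusted p = 0.00304, edgeR). Without it 12 of the 24 neutrophil genes passed, all with a higher day difference in sham, beside 13.3% of all genes. That replicate had the highest neutrophil score of the 12 libraries, 9.38 against 7.08 and 7.97 in its companions. Leaving it out lowers the hepatectomy POD3 level of neutrophil genes, so this count follows in part from the choice and is no independent support. The list's median difference between the operations went from 0.28 to 1.90.

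Il15, a cytokine that sustains lymphocytes, had the lowest p of the comparison between operations. It stood at 15.9, 13.3 and 9.58 CPM at sham POD2 and at 25.7, 27.2 and 22.4 CPM at sham POD3. After hepatectomy it stood at 24.2, 19.2 and 22.7 CPM at POD2 and at 12.8, 13.3 and 11.6 CPM at POD3. Sham libraries were all higher and hepatectomy libraries all lower on the later day, with a difference of log2 1.77 ± 0.28 (adjusted p = 0.481, edgeR) that became 1.72 ± 0.27 without replicate 1 of hepatectomy POD3 (adjusted p = 0.00326, edgeR).

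Fibrillar collagen genes, made by stellate cells and fibroblasts, had differences of the opposite sign. Col3a1 stood at 22.1, 23.5 and 36.3 CPM at sham POD2 and at 19.6, 19.0 and 20.5 CPM at sham POD3. It stood at 42.2, 38.3 and 47.2 CPM at hepatectomy POD2 and at 88.3, 133 and 89.4 CPM at hepatectomy POD3. The hepatectomy groups did not overlap, with POD3 the higher, and the sham groups did not overlap, with POD3 the lower. In sham, Col1a2 had log2 -0.43 with overlapping groups and Col1a1 0.19, so the 3 genes did not share a direction there. The difference was log2 -1.75 ± 0.32 (adjusted p = 0.486, edgeR), and those of Col1a2 and Col1a1 were -1.68 ± 0.31 and -1.22 ± 0.25. Without replicate 1 of hepatectomy POD3 these were -1.92, -1.81 and -1.32, and each passed, with adjusted p from 0.00326 to 0.0046 in edgeR's test. Of the 20 stellate and fibroblast genes 10 then had a lower day difference in sham and 1 a higher one, beside 5.81% and 13.3% of all genes. The list's median difference was -1.20, or -1.04 with all 12 libraries.

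**Figure D5:**
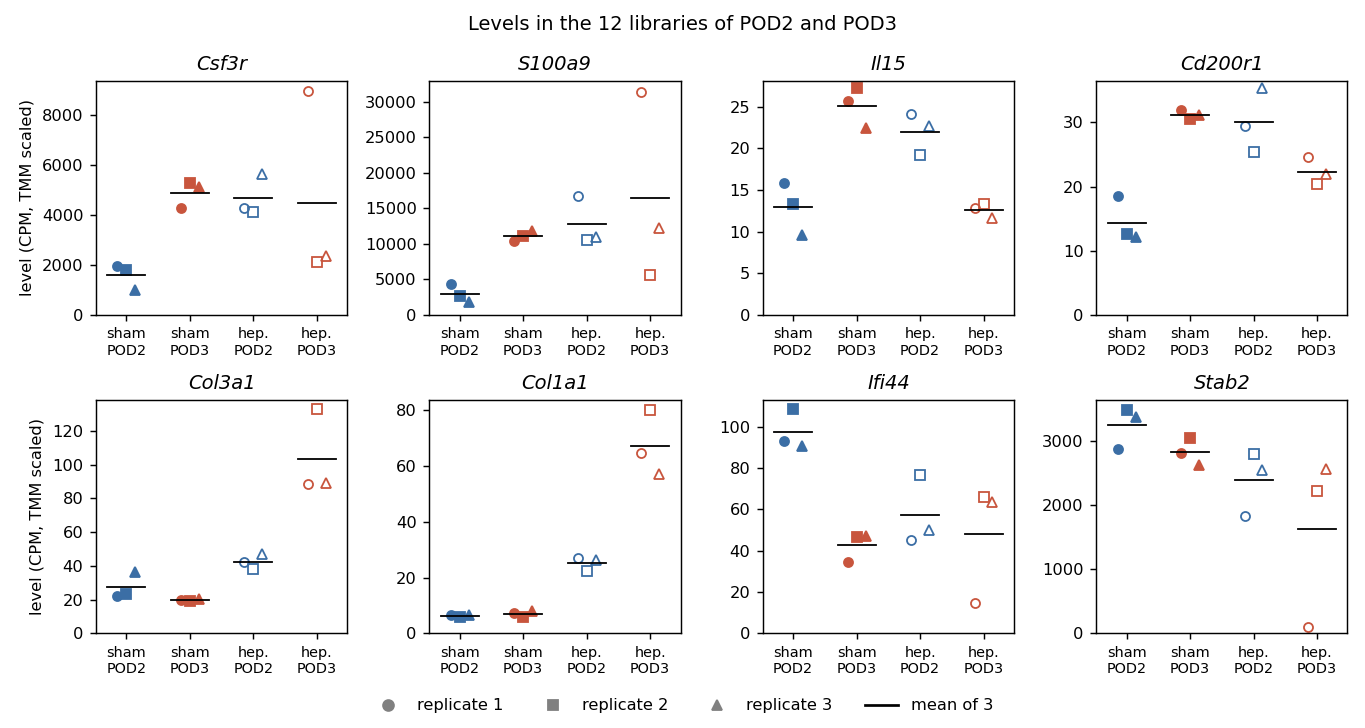
Levels in CPM (vertical axis, from 0, scaled over 12 libraries) of 8 genes in sham and hepatectomy (hep.) libraries of POD2 and POD3, with the mean of 3 as a line. Replicate 1 of hepatectomy POD3 stands apart in Csf3r, S100a9 and Stab2, while Il15 is at 22.4 to 27.2 CPM at sham POD3 and 11.6 to 13.3 CPM at hepatectomy POD3.

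The sham genes were also followed in hepatectomy POD1 against POD2, a comparison that shares no library with them and was added after the data were seen. There 4503 of 12754 genes (35.3%) were higher and 5788 (45.4%) lower at POD1. Of 1625 genes called higher at sham POD3, 78.1% were higher and 6.4% lower in hepatectomy POD1, beside 34.3% and 46.3% of all 12354 shared genes. Of 342 genes called lower at sham POD3, 4.39% were higher and 88.9% lower. Relative to unscaled totals, Stab2 ranged from 10.2 to 29.8 CPM in hepatectomy POD1 and from 1663 to 2725 CPM in hepatectomy POD2, and the part of this gap in those shares was not tested.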

How the data were processed

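RNA of CD11b+ Ly6G+ liver cells was sequenced after poly-A selection, per the labels. Adapters were trimmed with cutadapt, reads aligned with STAR 2.4.2a to GRCm38 and counted with HTSeq, per the submitters' processing notes. The annotation release and strand setting are not given in the sources used here, so antisense partners cannot be told apart. The authors deposited 1 table of raw counts per gene symbol, with 46477 symbols, of which 24530 had a count in the 6 libraries.

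From these counts, TMM-scaled CPM were computed, and edgeR 4.0.16 (R 4.3.3) fitted a quasi-likelihood model with filterByExpr and 4 residual degrees of freedom, two-sided at an adjusted p of 0.05. The SE is the fold change over the square root of F. The method was tested on simulated data. DESeq2 1.42.0, limma 3.58.1 voom, other scalings and filters, a replicate block, a covariate and left-out libraries were alternatives. Named genes were the 15 highest and 15 lowest fold changes past the threshold among genes with separated groups and at least 5 CPM, leaving out symbols of predicted genes, of clones and of antigen receptor segments (1345 higher and 321 lower qualified), up to 4 members per list with the lowest p, the 10 lowest p between operations and 8 identity genes. Other list members were named after their values were seen. The libraries, 24 function lists and 18 marker lists were chosen with earlier results of these data known. Of the tested symbols, 9577 had a RefSeq promoter. The PU.1, C/EBP and interferon sequences were added after seeing the data, and the C/EBP letters TTGCGCAA were in 0 of 22 promoters of the neutrophil list. Replicate libraries differed by more than sampling noise. Some genes are not reported here.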

Additional observations from a re-analysis of the deposited data

Results flagged for a closer look

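Of the 10 genes with the lowest p between operations, 6 had POD2 and POD3 libraries that did not overlap in either operation. Their day differences went in opposite directions in sham and hepatectomy. The share of all tested genes with this pattern is not given here. The differences between the operations, as log2 of sham minus hepatectomy, were 1.77 for Il15, 1.54 for Cd200r1, an inhibitory receptor of myeloid cells, -1.75 for Col3a1, 1.36 for Btbd19, -1.28 for Ifi202b and 2.55 for Basp1. The interaction term was tested in 12 libraries and none of the 6 passed (edgeR, adjusted p from 0.481 to 0.486). Without replicate 1 of hepatectomy POD3 each of the 6 passed, with adjusted p from 0.00326 to 0.0154. Cd200r1 stood at 12.1 to 18.5 CPM at sham POD2, 30.6 to 31.9 CPM at sham POD3, 25.4 to 35.3 CPM at hepatectomy POD2 and 20.4 to 24.6 CPM at hepatectomy POD3.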

How the results depend on the processing

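Of the 1985 genes called between sham POD2 and POD3, all kept their sign in every alternative fit that tested them except 1, the neutrophil score as covariate (1723). The genes were chosen in the same libraries, so kept signs are no independent support. The numbers higher and lower were 1862 and 342 with DESeq2, 1689 and 253 with median-of-ratios factors, 2151 and 885 with voom, and 1410 and 2627 with library size alone. No gene, 0 higher and 0 lower, passed with all 24 libraries in 1 fit (edgeR, lowest adjusted p = 0.964, 255 at an unadjusted p under 0.05), with the 12 libraries of POD2 and POD3 in 1 fit, chosen after seeing the data, or with the covariate. Leaving out 1 library gave 0 to 2165 higher and 0 to 919 lower, with 1076 higher without POD2 replicate 2, 1015 higher and 41 lower without POD2 replicate 3, and 59 lower without POD3 replicate 1. The cause was not tested. The list medians given above kept their sign with library size alone and with median-of-ratios factors, apart from that of the NRF2 list, but library size moved the interferon median from -0.26 to -0.44, the sinusoidal one from -0.32 to -0.51, the oxidative phosphorylation one from -0.25 to -0.43, the stellate one from -0.35 to -0.54 and the erythroid one from 0.20 to 0.023. Library size alone also turned the medians of the apoptosis list, from 0.043 to -0.14, and of the acute-phase list, from 0.149 to -0.032. Of the 15 highest and 15 lowest named genes, those still passing were 10 and 7 without POD2 replicate 2, 14 and 5 without POD2 replicate 3, 15 and 7 without POD3 replicate 1, and 13 and 4 without POD3 replicate 3.

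With the replicate block 0 genes passed (lowest adjusted p = 0.0526, 3610 at an unadjusted p under 0.05). Deviations of same-numbered samples correlated at -0.349, 0.0536 and -0.343, and those of differently numbered samples at -0.16 to 0.404. These values gave no sign that the numbers pair the samples, but they cannot exclude it. The block also gave 0 genes for the difference between operations.

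With the covariate, fold changes turned to -0.23 for Mmp8, -0.37 for Ly6g, 0.051 for Stab2 and 0.13 for Kdr. For the difference between operations DESeq2 gave 24 higher and 19 lower and leaving out 1 library 0 to 1849 higher and 0 to 810 lower. The neutrophil score difference was 1.13 to 1.67 without 1 library and 1.46 with a pseudocount of 0.1. Depth limits genes of a few CPM, and 3 libraries a day limit the rest.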
